A study of Homo sapiens with 4 samples.

Results

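Genes of melanosome biogenesis and transport were followed in ribosome footprints of Hermes 4B, a wild-type human melanocyte line from skin that was made immortal. The 10 genes were fixed by name: RAB27A, MLPH, MYO5A, RAB38, RAB32, HPS1, HPS4, HPS5, AP3B1 and LYST. Rows with these gene names were taken from the 4 deposited tables, which list 14355 gene names in all, and coding-sequence reads were summed by gene name. Measurements were found for 9 of the 10, and HPS5 was not analysed here. Cells had been given siRNA to the antisense transcript of the P-cadherin gene (CDH3-AS1) or a control siRNA. Each siRNA had 2 libraries, 1 in each of 2 labelled batches, and replicate numbers equal batch numbers. All cells were transfected with 25 to 50 nM siRNA and grown in RPMI1640 medium with 10% FBS, stem cell factor (10 ng/mL), cholera toxin (200 pM), endothelin-1 (10 nM) and the phorbol ester TPA (200 nM), so the controls carry these agents too. Ribosomes were held with 100 µg/mL cycloheximide in all 4 libraries. The comparison asks how footprints of these genes differ after the CDH3-AS1 siRNA. The level of CDH3-AS1 was not analysed here, and the knockdown is therefore unchecked.

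Melanosomes are lysosome-related organelles in which melanocytes make and store melanin. Their cargo is sorted from endosomes by the adaptor AP-3 and by the BLOC complexes, and the GTPases RAB38 and RAB32 direct the carriers that bring melanin-forming enzymes. Mature melanosomes then bind actin through a chain of RAB27A, its effector melanophilin (MLPH) and the motor myosin Va (MYO5A), which holds them at the cell periphery for transfer to keratinocytes. Inherited loss of these genes causes Griscelli syndrome (RAB27A, MLPH, MYO5A), Hermansky-Pudlak syndrome (HPS genes, AP3B1) or Chediak-Higashi syndrome (LYST), all with reduced pigment.

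Libraries held 6759850 and 2858835 reads for CDH3-AS1 siRNA replicates 1 and 2, and 2034854 and 5994485 reads for control siRNA replicates 1 and 2. The deeper library of a batch was therefore the CDH3-AS1 siRNA library in batch 1 and the control library in batch 2. Each of the 9 genes had between 75 and 3301 coding-sequence reads in every library, far above 3 reads, the level taken here as the limit of detection. Levels are given as CPM, the coding-sequence reads of a gene divided by the library's coding-sequence total in megareads, with that total scaled between libraries by TMM. The 7 melanocyte markers examined (MITF, SOX10, TYR, TYRP1, DCT, PMEL and MLANA) had reads in all 4 libraries and summed to 21447 and 31493 unscaled CPM after CDH3-AS1 siRNA and to 23085 and 39741 unscaled CPM in the controls. Control siRNA replicate 1 stood apart by footprints of genes that mark other tissues. Its 14 skeletal muscle markers summed to 4131 unscaled CPM with 12 of 14 detected, and its 6 fibroblast markers to 496 unscaled CPM with 4 of 6 detected (COL3A1 and DCN at 0). The other 3 libraries had 4.21 to 10.9 CPM of the muscle markers, with CKM, MYH1, TNNC2 and MB at 0 in each, and 0.355 to 4.25 CPM of the fibroblast markers. Keratinocyte markers ranged over 8.03 to 35.3 CPM outside that library and stood at 8.68 CPM in it. Nearly all of this was KRT10, and KRT5 and DSG3 were at 0 in every library. Leukocyte and endothelial markers were at most 2.36 and 0.473 CPM outside control siRNA replicate 1, and at 9.77 CPM each in it. There the leukocyte value was LYZ alone, with PTPRC, CD14, CD3E and MS4A1 at 0. The endothelial value lay on VWF and CDH5, with PECAM1 at 0. For the 9 genes and the named pathway genes, the log2 fold change is also given with control siRNA replicate 1 left out. Fits with a library left out have no batch term, so they mix batch with siRNA. Separate cultures are not mentioned in the labels, and p-values then rest only on the spread among these 4 samples, which may be technical.

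Stretches before the annotated starts of the genes that carry the comparison are shown for orientation, because MITF, the master regulator of melanocyte genes, is known to bind E-boxes. They come from RefSeq on GRCh38.p14, run 5′ to 3′ on the gene's strand and end at the base before the start. Capitals mark an E-box of the form CACGTG or CATGTG, searched on both strands, where CACGTG is its own reverse complement and the 2 forms do not overlap. RAB27A (chr15:55319124-55319373, minus strand), RAB32 (chr6:146543583-146543832, plus strand) and MYO5A (chr15:52529051-52529300, minus strand) are shown over 250 bases and hold none.
RAB27A: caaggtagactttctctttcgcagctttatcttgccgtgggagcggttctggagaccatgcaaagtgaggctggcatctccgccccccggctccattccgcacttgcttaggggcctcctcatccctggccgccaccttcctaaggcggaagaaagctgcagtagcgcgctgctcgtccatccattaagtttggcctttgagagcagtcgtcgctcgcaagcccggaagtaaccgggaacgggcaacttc
RAB32: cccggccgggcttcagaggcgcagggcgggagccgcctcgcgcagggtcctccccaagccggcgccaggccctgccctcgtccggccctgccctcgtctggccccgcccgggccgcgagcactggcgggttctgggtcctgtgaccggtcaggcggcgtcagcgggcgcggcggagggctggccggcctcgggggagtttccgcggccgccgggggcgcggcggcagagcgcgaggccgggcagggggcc
MYO5A: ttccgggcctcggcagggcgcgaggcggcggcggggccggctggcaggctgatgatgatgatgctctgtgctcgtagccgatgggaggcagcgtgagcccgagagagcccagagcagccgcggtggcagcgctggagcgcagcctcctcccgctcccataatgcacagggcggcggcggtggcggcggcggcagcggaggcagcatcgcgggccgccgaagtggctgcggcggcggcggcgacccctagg
MLPH (chr2:237487194-237487243, plus strand), LYST (chr1:235883721-235883770, minus strand) and HPS4 (chr22:26479650-26479699, minus strand) are shown over 50 bases around the match.
MLPH: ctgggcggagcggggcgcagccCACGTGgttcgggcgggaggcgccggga
LYST: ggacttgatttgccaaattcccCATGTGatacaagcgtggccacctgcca
HPS4: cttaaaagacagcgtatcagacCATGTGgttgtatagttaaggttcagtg

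Windows were at hand for 6 of the 9 genes, 16 windows in all since several genes have more than 1 start, and 4 windows of 3 genes (MLPH, LYST and HPS4) held an E-box. The LYST windows with an E-box overlap and share the same match, and each of the 3 genes also has a window without an E-box. All 5 windows of RAB27A lacked one. Of all 35116 such windows in the table, 15.2% held one. A match is a description of the letters and not a bound site. RAB38, HPS1 and AP3B1 are named only.

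Footprint density set the 9 genes in a wide order. It was computed as CPM per kilobase of the longest coding sequence listed for the gene, so a comparison between genes depends on that length. For MLPH the transcript with the longest coding sequence held 1.15% of the coding reads. RAB32 was highest with a mean of 424 CPM per kilobase over the 4 libraries (275 to 635), followed by RAB38 with 215 (105 to 296) and MLPH with 169 (138 to 235). RAB27A had 106 CPM per kilobase (42.6 to 212) and MYO5A 78.7 (57.9 to 105). AP3B1 had 33.9 CPM per kilobase (23.7 to 41.8), HPS1 27.5 (21.4 to 35.7), LYST 26.8 (25.7 to 28.6) and HPS4 16.5 (13.6 to 19.8). The ranges of neighbours overlapped except between MYO5A and AP3B1 and between LYST and HPS4. By this density the small GTPases and the RAB27A chain thus stood above the sorting complexes and LYST in every library. The mean of summed RPKM, which counts each transcript at its own length, kept the first 5 places but set the top genes close together. RAB32 had 392, RAB38 379 and MLPH 358. LYST, HPS1 and AP3B1 took the places after the first 5, in that order. RAB32 was highest in replicate 2 of both siRNAs. MLPH lay above RAB32 in CDH3-AS1 siRNA replicate 1 (275 against 256). In control siRNA replicate 1 RAB38 (555) and MLPH (518) lay above RAB32 (367). By summed RPKM LYST lay above RAB27A in CDH3-AS1 siRNA replicate 1 (62.3 against 39.8) and in control siRNA replicate 1 (73.6 against 69.4).

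After CDH3-AS1 siRNA, footprints of 7 of the 9 genes were lower than the control of the same batch in both batches: RAB27A, MLPH, MYO5A, RAB38, RAB32, HPS1 and HPS4. Over all 10469 genes tested, 27.8% were lower in both batches and 26.5% higher in both, and none of the 9 was higher in both. For 5 genes (RAB38, RAB32, MLPH, MYO5A and HPS4) both CDH3-AS1 siRNA libraries lay below both controls, which held for 14.1% of all genes. The opposite, both above, held for 13.3% of all genes and for 0 of the 9. The median log2 fold change was -0.45 over the 9 genes, against -0.03 over all genes. It was -0.51 within batch 1 and -0.30 within batch 2, against 0.01 and -0.03 over all genes. These genes were chosen with results of these data in view, so the counts describe them and are no test.

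**Figure D1:**
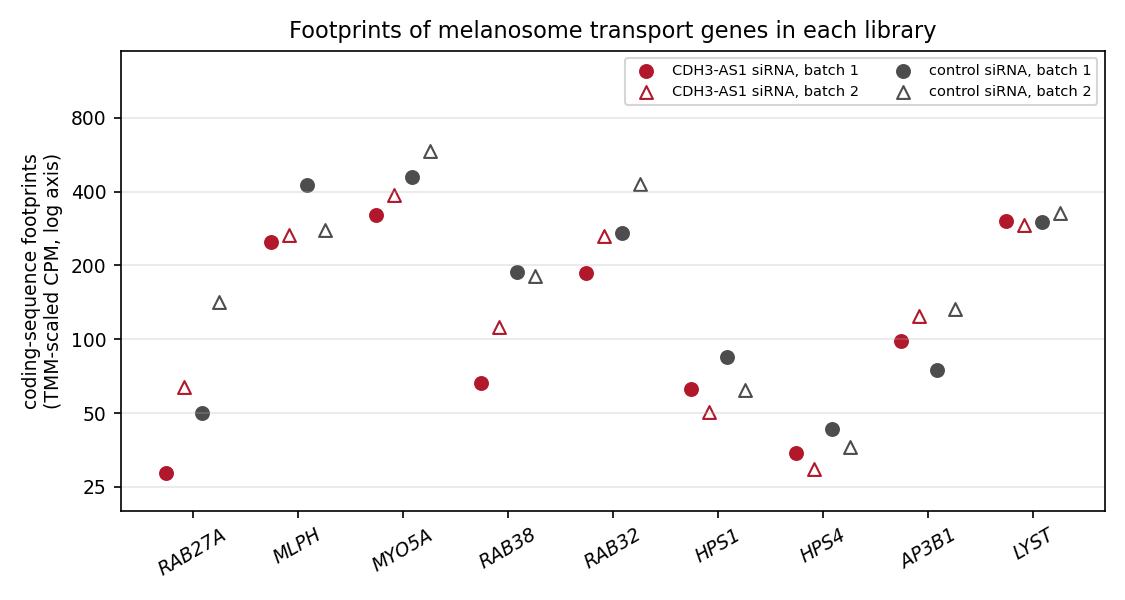
Coding-sequence footprints of the 9 measured genes in each library, as TMM-scaled CPM on a log axis. CDH3-AS1 siRNA libraries are red and stand left of the grey controls; filled circles are batch 1 and open triangles batch 2. RAB38, RAB32, MLPH, MYO5A and HPS4 show both red points below both grey ones, and LYST stays between 293 and 326 CPM.

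By edgeR's quasi-likelihood test without a batch term, 0 of 10469 genes passed (0%, with 225 at an unadjusted p under 0.05), and 0 of the 9 did (1, RAB38, at an unadjusted p under 0.05). DESeq2 without a batch term called 2 of all genes and 0 of the 9. A gene that did not pass is not shown to be unchanged. With the batch as a replicate block, edgeR called 0.697% of all genes lower and 0.927% higher. RAB27A and RAB38 were called lower, 2 of the 9, and 0 of the 9 were called higher. The p-values of this fit are normal tail values of the log2 fold change over its SE, with the spread pooled over genes. How far the batches disagree for RAB27A or for RAB38 therefore carried little weight in them. With control siRNA replicate 1 left out the block fit has no residual degrees of freedom, so the values of batch 2 alone, which carry no test, stand for both genes below. DESeq2 with the same block called neither (adjusted p = 0.329 for RAB27A and 0.103 for RAB38). With 2 libraries against 2 and the pairing left out, the smallest two-sided p that exact permutation allows for 1 gene is 0.333.

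RAB27A (chromosome 15, 55202966 to 55319123), the GTPase that marks mature melanosomes for actin capture, had 28.4 and 63.6 CPM after CDH3-AS1 siRNA in batches 1 and 2, against 50.1 and 141 CPM in the controls. It was low in the CDH3-AS1 siRNA library of each batch, but the groups overlap, because both libraries of batch 2 lay above both of batch 1. It averaged 46.0 ± 24.9 CPM after CDH3-AS1 siRNA and 95.7 ± 64.5 CPM in the controls (SD, n = 2 each). Its level was 56.6% of the control in batch 1 (95% interval 43.8 to 73.4, counting error only) and 45.0% in batch 2 (37.8 to 53.4). The log2 fold change was -1.07 (SE 0.59, edgeR adjusted p = 1.00) without the block and -0.99 (SE 0.29, edgeR adjusted p = 0.0408) with it. Leaving out 1 library without the block mixes batch with siRNA, for this gene as for the others. With a CDH3-AS1 siRNA library left out it was -0.59 (replicate 1) or -1.75 (replicate 2), and with a control left out -1.60 (replicate 1) or -0.13 (replicate 2).

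MLPH (chromosome 2, 237486410 to 237555322), which links RAB27A to the motor, had 249 and 266 CPM after CDH3-AS1 siRNA, against 424 and 279 CPM in the controls. The high value was that of control siRNA replicate 1, and the other 3 libraries lay between 249 and 279 CPM. Means were 258 ± 11.6 CPM after CDH3-AS1 siRNA and 352 ± 103 CPM in the controls (SD, n = 2 each). MLPH stood at 58.8% of the control in batch 1 (interval 53.9 to 64.1) and at 95.4% in batch 2 (87.0 to 104). The log2 fold change of -0.45 (SE 0.35, edgeR adjusted p = 1.00) was -0.08 with control replicate 1 left out and -0.71 with control replicate 2 left out.

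MYO5A (chromosome 15, 52307283 to 52529050), the actin motor, had 322 and 387 CPM after CDH3-AS1 siRNA, against 460 and 584 CPM in the controls. Both CDH3-AS1 siRNA libraries were lower than both controls, and the sizes were near each other in the batches, with 70.1% of the control in batch 1 (interval 64.7 to 76.0) and 66.3% in batch 2 (61.6 to 71.2). MYO5A averaged 355 ± 45.5 CPM after CDH3-AS1 siRNA and 522 ± 87.7 CPM in the controls (SD, n = 2 each). Its log2 difference of -0.56 (SE 0.34, edgeR adjusted p = 1.00) did not pass, nor did -0.55 (SE 0.23, edgeR adjusted p = 0.309) with the block. With control replicate 2 left out it was -0.36, a change of over 1.5 times, and with control replicate 1 left out -0.69. Within each library the density of MYO5A over that of RAB27A was 1.36 and 0.727 after CDH3-AS1 siRNA and 1.10 and 0.494 in the controls.

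RAB38 (chromosome 11, 87803715 to 88175443), which directs carriers of tyrosinase-related cargo to the melanosome, had 66.5 and 112 CPM after CDH3-AS1 siRNA, against 188 and 181 CPM in the controls. The controls differed little from each other, and both CDH3-AS1 siRNA libraries lay well below them. RAB38 averaged 89.4 ± 32.3 CPM after CDH3-AS1 siRNA and 185 ± 4.94 CPM in the controls (SD, n = 2 each). Levels were 35.3% of the control in batch 1 (interval 30.6 to 40.8) and 61.9% in batch 2 (54.1 to 70.7), intervals that do not overlap. On the log2 scale RAB38 differed by -1.05 (SE 0.37, edgeR adjusted p = 1.00) without the block and -1.09 (SE 0.26, edgeR adjusted p = 0.00467) with it. Leaving out each library in turn gave -1.47 to -0.72, and without control siRNA replicate 1 it was -0.99. The RefSeq table places 2 other genes within the bounds of RAB38, the noncoding LOC107984361 (108331 shared bases, introns included) and the pseudogene MTCYBP41 (1123 bases), whose reads cannot be told apart from those of RAB38 where exons coincide.

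RAB32 (chromosome 6, 146543833 to 146554953), the close relative of RAB38 with an overlapping role, had 186 and 263 CPM after CDH3-AS1 siRNA, against 270.3 and 431 CPM in the controls. Both were below both controls, though the nearest values, 263 CPM in CDH3-AS1 siRNA replicate 2 and 270.3 CPM in control replicate 1, were little apart. Means were 224 ± 54.1 CPM after CDH3-AS1 siRNA and 350.4 ± 113 CPM in the controls (SD, n = 2 each). Levels were 68.8% of the control in batch 1 (interval 62.0 to 76.6) and 61.0% in batch 2 (55.9 to 66.5). Its log2 fold change of -0.64 (SE 0.39, edgeR adjusted p = 1.00) did not pass with the block either (-0.63, SE 0.24, edgeR adjusted p = 0.232). It ran from -0.91 to -0.26 when each library was left out, the smallest without control siRNA replicate 2, and was -0.91 with control replicate 1 left out. The density of RAB32 over that of RAB38 was 2.62 and 2.20 after CDH3-AS1 siRNA, against 1.35 and 2.23 in the controls, so control siRNA replicate 1 stood apart in this ratio and the other 3 libraries did not differ by much.

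**Figure D2:**
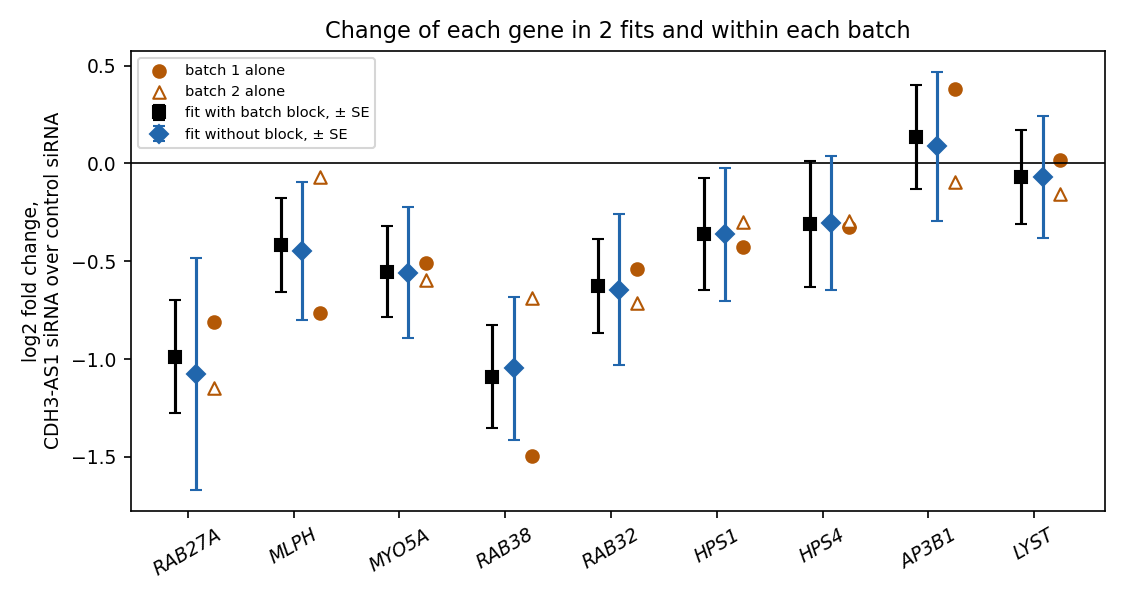
Log2 fold change of CDH3-AS1 siRNA over control siRNA for the 9 measured genes, in the fit with the batch block (black squares), the fit without it (blue diamonds), both with SE, and within each batch (brown circle and triangle). RAB27A and RAB38 lie near -1 in both fits, the batches are apart for RAB38 and MLPH, and AP3B1 and LYST lie on both sides of 0.

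HPS1 and HPS4 form BLOC-3, the exchange factor that activates RAB32 and RAB38. HPS1 (chromosome 10, 98413948 to 98446935) had 62.6 and 50.6 CPM after CDH3-AS1 siRNA, against 84.2 and 62.2 CPM in the controls, and HPS4 (chromosome 22, 26443109 to 26483863) had 34.4 and 29.6 CPM, against 43.2 and 36.4 CPM. The density of HPS1 over that of HPS4 stayed within 1.58 to 1.80, at 1.68 and 1.58 after CDH3-AS1 siRNA and at 1.80 and 1.58 in the controls. HPS1 was at 74.3% of the control in batch 1 (interval 61.6 to 89.9) and 81.2% in batch 2 (65.8 to 99.7). HPS4 was at 79.6% (61.4 to 104) and 81.3% (61.6 to 106), intervals that include the level of the control. Neither passed edgeR's test with or without the block (HPS1 -0.36, SE 0.34, and HPS4 -0.30, SE 0.34, adjusted p = 1.00 for each). Without control siRNA replicate 1 the log2 fold changes were -0.10 and -0.15. HPS1 shares bases with HPS1-AS1 (615) and PYROXD2 (1235), and HPS4 with ASPHD2 (1907), and without known strand the reads there cannot be told apart.

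AP3B1 (chromosome 5, 78000522 to 78294698), a large subunit of AP-3, which sorts tyrosinase out of endosomes, had 98.1 and 124 CPM after CDH3-AS1 siRNA, against 75.2 and 132 CPM in the controls. The groups overlap and the batches went opposite ways, with 130.4% of the control in batch 1 (interval 108 to 158) and 93.7% in batch 2 (81.8 to 107). Its log2 fold change was 0.09 (SE 0.38, edgeR adjusted p = 1.00). It was 0.57 with control replicate 2 left out, and turned to -0.23 with control replicate 1 left out and to -0.09 with CDH3-AS1 siRNA replicate 2 left out.

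LYST (chromosome 1, 235661031 to 235883713), which governs the size of lysosomes and melanosomes, had 303 and 293 CPM after CDH3-AS1 siRNA, against 299.7 and 326 CPM in the controls. All 4 libraries lay within a narrow band. The level was 101% of the control in batch 1 (interval 92.0 to 111) and 89.9% in batch 2 (82.4 to 97.9), and the log2 fold change was -0.07 (SE 0.31, edgeR adjusted p = 1.00). With control replicate 1 left out it was -0.10, and it turned to 0.0067 with control replicate 2 left out. On summed RPKM, where a read on a short transcript weighs more, limma gave -0.48. Its 234-base coding transcript held 3.77% of its coding reads.

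RAB27A also differed between the batches. In a model with the siRNA as a second term, edgeR called 9.52% of genes higher and 6.3% lower in batch 2 than in batch 1. RAB27A was the 1 gene of the 9 called, with a log2 fold change of 1.32 for batch 2 over batch 1 (SE 0.29, edgeR adjusted p = 1.45e-04), and 0 of the 9 were called lower. It was higher in batch 2 by 1.15 (log2) in the CDH3-AS1 siRNA libraries and by 1.49 in the controls. RAB27A was not called without the siRNA term, nor with any 1 of the 4 libraries left out. RAB32 (0.58, SE 0.24, edgeR adjusted p = 0.0815) and AP3B1 (0.57, SE 0.27, edgeR adjusted p = 0.138) did not pass. MLPH differed between batches by 0.09 after CDH3-AS1 siRNA and by -0.61 in the controls.

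The reads of a gene are spread over its annotated transcripts in the deposited tables, and how reads that fit several were assigned is not given in the sources used here. RAB27A and RAB32 had coding-sequence reads on 1 transcript each, RAB38 on 2, MLPH on 6 and MYO5A on 8. RAB38 had 63.0% of its coding-sequence reads on ENST00000531138.1, with a listed coding sequence of 268 bases, and the rest on ENST00000243662.11, which has the full 636 bases. The full-length transcript had 32.5 and 41.1 CPM after CDH3-AS1 siRNA, against 46.4 and 66.1 CPM in the controls. That is 70.0% of the control in batch 1 (interval 54.2 to 91.0) and 62.1% in batch 2 (49.5 to 77.4), close in both batches. The short transcript had 34.1 and 71.1 CPM, against 142 and 115 CPM, that is 24.0% of the control in batch 1 (19.97 to 28.8) and 61.8% in batch 2 (52.1 to 73.0). The larger RAB38 difference of batch 1 thus lay on the short transcript, whose share of RAB38 reads was 51.2% and 63.4% after CDH3-AS1 siRNA and 75.4% and 63.5% in the controls.

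MLPH showed a similar split. Its transcript ENST00000436965.5, listed with 610 coding bases and no UTR, had 49.6 and 77.0 CPM after CDH3-AS1 siRNA, against 152 and 69.0 CPM in the controls. It took 35.8% of MLPH reads in control siRNA replicate 1 (interval 32.5 to 39.2) and 19.9% to 29.0% in the other libraries. Without this transcript MLPH stood at 73.4% of the control in batch 1 (66.1 to 81.5) and at 90.0% in batch 2 (80.8 to 100.2). MYO5A had 93.3% of its reads on ENST00000399231.8, which stood at 77.1% of the control in batch 1 (70.7 to 84.0) and 64.9% in batch 2 (60.2 to 69.8). A shorter MYO5A transcript, ENST00000692708.1, took 10.8% of MYO5A reads in control siRNA replicate 1 (8.80 to 13.1) and 1.54% to 3.93% elsewhere. Control siRNA replicate 1 therefore had the largest share on a partial transcript for RAB38, MLPH and MYO5A. The same held for a shorter transcript of AP3B1 (21.3%), of HPS4 (32.1%) and of HPS1 (17.1%). It did not hold for the 394-base MLPH transcript, the 234-base LYST transcript or the 1134-base HPS1 transcript. Control siRNA replicate 1 is also the library with the muscle and fibroblast markers, and their part in these shares was not tested.

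**Figure D3:**
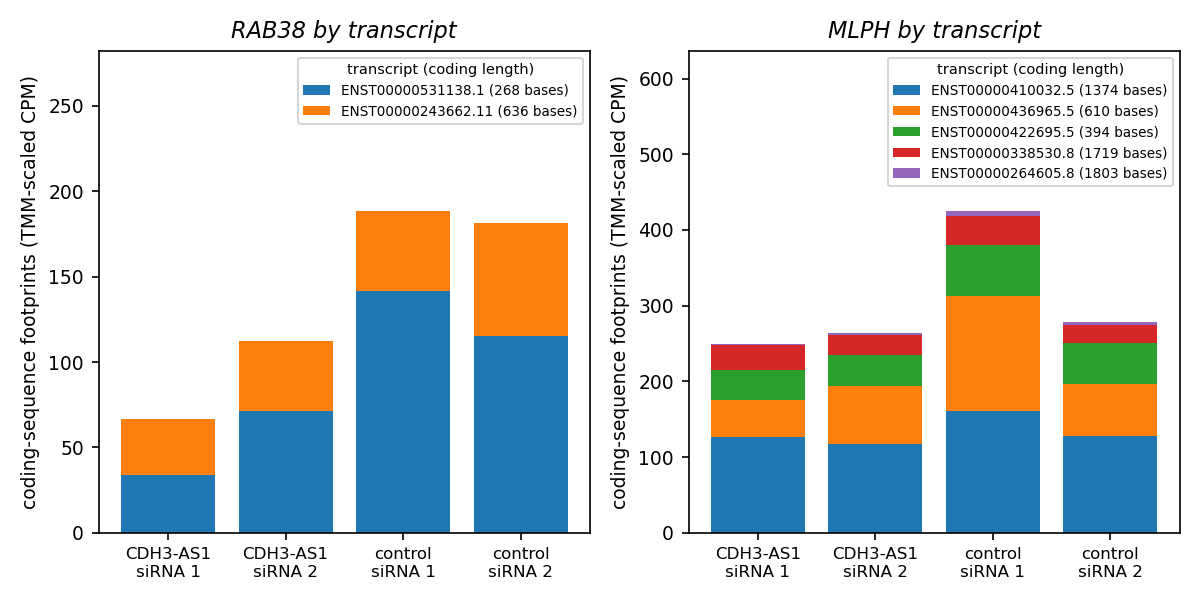
Coding-sequence footprints of RAB38 (left) and MLPH (right) by annotated transcript, stacked, in TMM-scaled CPM; bars are the CDH3-AS1 siRNA libraries and then the controls, numbered by batch, and the legend gives the listed coding length (transcripts with 5 CPM or less summed over the libraries are left out). The 268-base RAB38 transcript and the 610-base MLPH transcript are largest in control siRNA replicate 1.

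Footprints in 5′ UTRs differed widely among the genes. RAB38 and RAB32, with listed 5′ UTRs of at most 59 and 39 bases, had 0 reads there in every library, which at the RAB38 depth of 284 reads or more allows a 5′ UTR share of up to 1.29% (exact interval). HPS4 had the highest shares of the 9 in 3 of 4 libraries: of its 5′ UTR and coding reads, 21.1% and 29.9% lay in the 5′ UTR after CDH3-AS1 siRNA, against 45.3% and 29.0% in the controls. Over all genes the share was 3.90% and 7.21% after CDH3-AS1 siRNA, against 6.19% and 5.13% in the controls. Of the HPS4 5′ UTR reads, 94.6% were assigned to ENST00000699235.1, which has a 5′ UTR of 1241 bases. LYST had 7.31% and 6.31%, against 13.0% and 8.12%, with 73.7% of its 5′ UTR reads on ENST00000697182.1, a transcript with a listed coding sequence of 234 bases.

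RAB27A was the 1 gene whose 5′ UTR share was higher in both CDH3-AS1 siRNA libraries than in both controls. For HPS1 and LYST the share was lower in both CDH3-AS1 siRNA libraries than in both controls. How often either holds over all genes was not counted. The share was 21.8% (exact interval 16.7 to 27.8) and 19.1% (13.9 to 25.3) after CDH3-AS1 siRNA, against 7.84% (3.45 to 14.9) and 13.3% (11.2 to 15.7) in the controls. The intervals were apart in batch 1 and overlapped in batch 2, and the siRNA difference was not tested beyond them. RAB27A 5′ UTR reads stood at 7.92 and 15.0 CPM after CDH3-AS1 siRNA, against 4.27 and 21.7 CPM in the controls, so their level was higher in batch 1 and lower in batch 2 while the coding level was lower in both. RAB27A overlaps PIGBOS1, the gene of a mitochondrial microprotein, over 1940 bases at its start, and reads there cannot be told apart without strand. HPS1 had 25 5′ UTR reads in control siRNA replicate 1, a share of 13.7% (9.04 to 19.5), and at most 2.76% elsewhere. HPS1, HPS4 and LYST had their highest 5′ UTR share in control siRNA replicate 1. MLPH had 2.72% and 7.30% after CDH3-AS1 siRNA, against 4.21% and 5.57% in the controls, so its groups overlap. MYO5A ranged over 1.52% to 3.07% and AP3B1 over 0% to 1.06%.

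**Figure D4:**
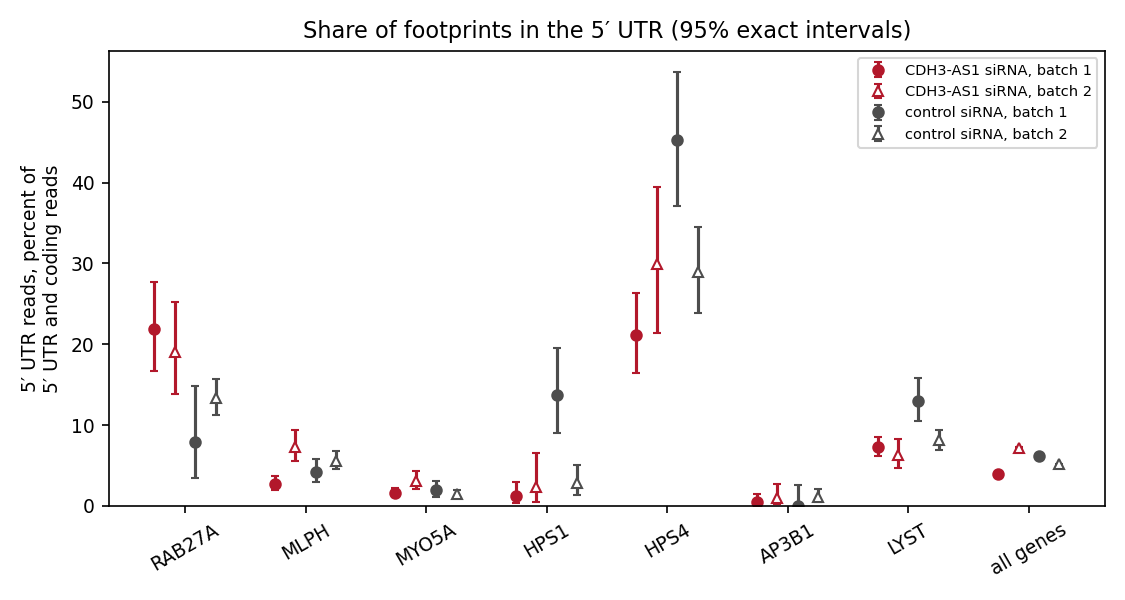
Percent of a gene's 5′ UTR and coding reads that lay in the 5′ UTR, per library, with 95% exact intervals that cover counting error only; CDH3-AS1 siRNA is red and left of the grey controls, filled circles are batch 1 and open triangles batch 2. RAB38 and RAB32 had no such reads and are not drawn. HPS4 ranges from 21.1% to 45.3%, RAB27A is higher in both red libraries, and HPS1 and LYST are lower in both.

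The rest of the pathway was followed in 67 further genes of 7 lists. Of these 52 were tested, and 0 passed edgeR's test in either direction without or with the block. At an unadjusted edgeR p under 0.05 there were 0 without the block and 4 with it, against 225 and 1025 of all 10469 genes. DESeq2 called 0 of the 52 with or without the block. The median log2 fold change of the 52 was -0.14. In both batches 18 were lower and 11 higher, against 27.8% and 26.5% of all genes. Each list is given in turn with its 2 genes of smallest unadjusted p in the block fit at a mean of 10 CPM or more. The adjusted p of edgeR with the block was at least 0.11 for every tested gene of the lists.

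BLOC-1, which forms tubular carriers on endosomes, had 8 of 8 subunits tested and a median of -0.31, with 4 lower and 2 higher in both batches. BLOC1S2 had 13.0 and 7.90 CPM after CDH3-AS1 siRNA, against 26.7 and 15.4 CPM in the controls, the lowest log2 fold change of the 52 genes (-0.94, SE 0.49). BLOC1S3 had 11.1 and 17.4 CPM, against 10.7 and 6.72 CPM, the highest of the 52 (0.70, SE 0.50). Both rest on 20 to 87 reads per library. With 1 library left out BLOC1S2 ranged from -1.33 to -0.48, the last without control replicate 1, and BLOC1S3 from 0.36 to 1.05, the last again without control replicate 1. The other BLOC-2 and AP-3 subunits had 6 of 7 tested and a median of -0.10. Among them the BLOC-2 subunit HPS3 had 64.3 and 77.4 CPM, against 75.7 and 119 CPM, and AP3D1, the second large subunit of AP-3, had 269 and 440.01 CPM, against 399.9 and 549.7 CPM. AP3D1 was lower in both batches, at 67.2% and 80.0% of the control, where its partner AP3B1 went opposite ways. With control replicate 1 left out, the log2 fold changes were -0.72 for HPS3 (-0.47 with all libraries) and -0.60 for AP3D1 (-0.42).

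AP-1 and its kinesin, which move cargo along a parallel route, had 6 of 7 tested and a median of -0.15. AP1S1 had 190.1 and 102 CPM after CDH3-AS1 siRNA, against 224 and 120.2 CPM, and the kinesin KIF13A had 60.5 and 64.8 CPM, against 56.0 and 51.5 CPM. With control replicate 1 left out AP1S1 turned to 0.32 (-0.23 with all libraries), as it did to 0.15 without CDH3-AS1 siRNA replicate 2, and KIF13A was at 0.31 (0.22). Within batches 1 and 2, however, AP1S1 stood at 84.7% and 85.1% of the control. It was lower in batch 2 than in batch 1 (log2 fold change -0.89), and these fits mix batch with siRNA. Of 17 other Rabs, Rab regulators and effectors 10 were tested, with a median of 0.01; RAB27B, the close relative of RAB27A, did not pass the filter on low counts. RAB7A, the late endosomal GTPase, had 483 and 498 CPM, against 601 and 663 CPM, and was lower in both batches. CHML, a Rab escort protein, had 17.6 and 26.1 CPM, against 4.80 and 29.4 CPM, so its batches went opposite ways. CHML had only 9 reads in control replicate 1, and its log2 fold change of 0.27 turned to -0.41 with that library left out and was 2.06 with control replicate 2 left out. RAB7A was at -0.40 without control replicate 1 (-0.37 with all libraries). Tethers and SNAREs had 10 of 13 tested and a median of -0.16; VPS11 and VAMP7 were not analysed here. The endosomal SNARE STX7 had 89.5 and 144 CPM, against 103 and 275 CPM, and VIPAS39, partner of the tether VPS33B, had 27.2 and 28.8 CPM, against 17.1 and 22.8 CPM. With control replicate 1 left out STX7 was at -1.21 (-0.70 with all libraries), and VIPAS39 at 0.32 (0.47). STX7 turned to 0.19 with control replicate 2 left out, though it stood at 87.0% and 52.4% of the control in batches 1 and 2.

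Actin nucleators, other myosins and light chains had 5 of 8 tested, since MYO5B, MYO5C and MYO7A did not pass the filter, and a median of -0.19. FMN1, a formin that builds actin tracks, had 284 and 245 CPM after CDH3-AS1 siRNA, against 335 and 416 CPM in the controls. DYNLL1, a light chain that binds dynein and myosin Va, had 90.4 and 165 CPM, against 182 and 240.1 CPM, the smallest adjusted p of all 52 genes with the block (log2 fold change -0.77, edgeR adjusted p = 0.11). Both were lower than both controls, as was MYO5A. Of the 52 genes, 6 had both CDH3-AS1 siRNA libraries below both controls and 7 above both, against 14.1% and 13.3% of all genes. Without control replicate 1 FMN1 was at -0.62 (-0.51 with all libraries) and DYNLL1 at -0.88 (-0.72). Of the BEACH proteins, relatives of LYST, 7 of 7 were tested with a median of -0.13. LRBA had 55.9 and 72.7 CPM, against 64.0 and 124 CPM, and WDFY3 had 111 and 80.2 CPM, against 65.6 and 77.6 CPM. Without control replicate 1 LRBA was at -0.92 (-0.56 with all libraries) and WDFY3 at 0.33 (0.41), and LRBA turned to 0.02 without control replicate 2. Within batches 1 and 2 LRBA stood at 87.4% and 58.4% of the control.

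**Figure D5:**
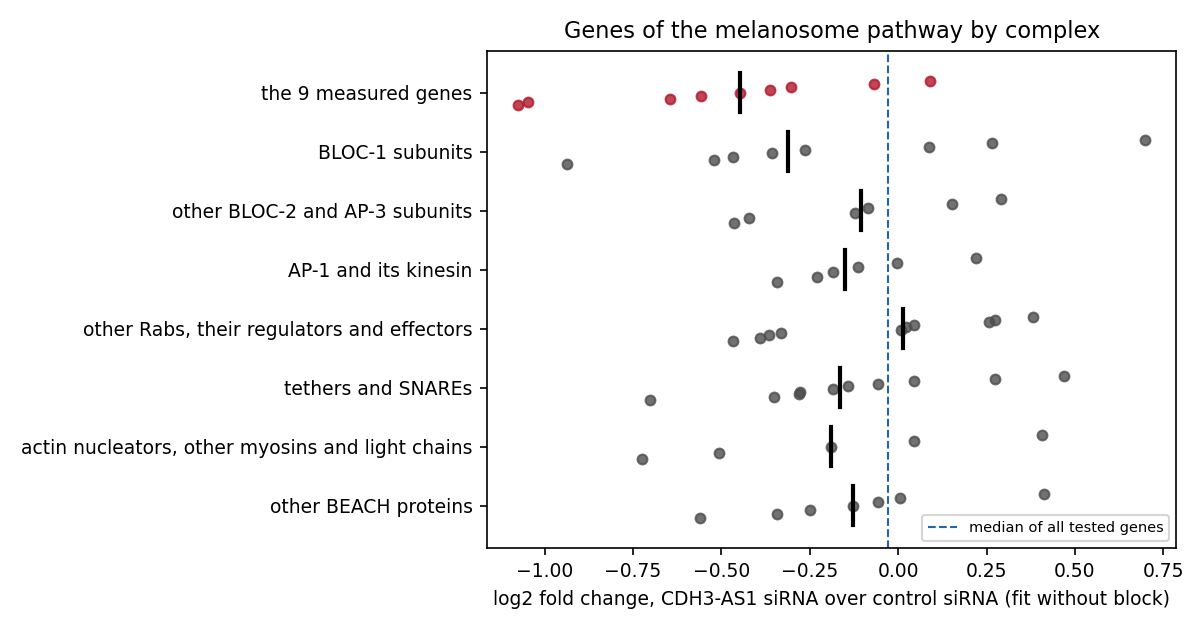
Log2 fold change of CDH3-AS1 siRNA over control siRNA (fit without block) for the 9 measured genes (red) and for the tested genes of 7 further lists (grey), 1 point a gene; black bars are medians and the dashed line is the median of all 10469 genes. The 9 genes have the lowest median, -0.45, and the lists spread on both sides of 0.

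Among the 7 melanocyte markers, 4 were lower and 1 higher in both batches, with a median log2 fold change of -0.30. Of all genes, 27.8% were lower and 26.5% higher in both batches. With the block edgeR called 2 of the 7 lower, TYR (adjusted p = 0.0498) and MLANA (adjusted p = 0.0397), where it called 0.697% of all genes lower. Without the block edgeR called neither (adjusted p = 1.00 for each). The cargo enzyme tyrosinase (TYR) stood at 78.9% and 49.1% of the control in batches 1 and 2, MLANA at 56.9% and 66.4%, and the lineage factor MITF at 98.1% and 73.0%. The lineage factor SOX10 stood at 103% and 135%, and PMEL at 88.8% and 82.8%. TYRP1 (113% and 86.0%) and DCT (115% and 35.1%) went opposite ways in the batches. In bulk footprints, fewer cells of a type and less RNA or fewer ribosomes per cell cannot be told apart. Whether the transport genes moved apart from the melanocyte markers was not tested.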

How the data were processed

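Ribosome footprints, fragments protected by ribosomes held with 100 µg/mL cycloheximide, were sequenced from 4 libraries. Per the file headers, the deposited tables give counts of reads per transcript in the 5′ UTR, coding sequence and 3′ UTR, with region lengths. The authors also deposited RPKM values, which equal the count per region length and library total to within 0.005. The submitters' processing notes name hg38 and DESeq2; the sources used here do not give aligner, counting, annotation release or strand use. Values are footprints without a matched RNA level, and not translational efficiency.

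Coding-sequence counts were summed by gene name, filtered with filterByExpr (minimum count 10, total 15) and tested over all 10469 genes with edgeR 4.0.16 (TMM, quasi-likelihood, prior count 2, Benjamini-Hochberg, threshold 0.05) in R 4.3.3, without a batch term. The labels give same-numbered libraries a shared batch, and deviations from the group mean ran together in same-numbered libraries (r = 0.58 over genes). The main fit leaves this pairing out, and its common coefficient of variation was 35.9%, against 20.2% with the block. The fit with the batch as replicate block takes the pairing in and is given where it changes a call. That fit leaves 1 residual degree of freedom, with its spread pooled over genes, and the fit without the block leaves 2. Simulated counts with known changes were drawn with the common dispersion of the block fit and a batch effect. That setting favours the block fit, so the simulation cannot rank the 2 fits. On these counts the fit without the block called none of the changed genes. The fit with it called 30% of the genes changed by a fold of 2 and 92% at a fold of 3, and 8 of its 116 calls were false. DESeq2 1.42.0 and limma 3.58.1 were alternatives. Alternatives without the block were other scaling, filters, the highest transcript, all regions, and leaving out each library. SE is the log2 fold change over the square root of the test statistic. Intervals are 95% Clopper-Pearson, for ratios conditional on the 2 libraries' sum of reads, and cover counting error only. A floor of 3 reads was 0.473 and 1.15 unscaled CPM after CDH3-AS1 siRNA, and 1.63 and 0.533 in the controls. Coordinates are from a RefSeq gene table of GRCh38.p14, the assembly of the files' build, in which 13900 of 14355 gene names matched.

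Members and lists were chosen with earlier results of these data known. All members are named; of each pathway list, genes called over all genes in either fit, otherwise the 2 of smallest unadjusted p with the block at a mean of at least 10 CPM.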

Additional observations from a re-analysis of the deposited data

How the results depend on the processing

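Across 135 values of the 9 genes under 15 alternatives, 130 kept direction and side of the threshold. RAB27A and RAB38 passed with the replicate block alone (2 of the 9 called). AP3B1 turned to -0.09 without CDH3-AS1 siRNA replicate 2 and to -0.23 without control siRNA replicate 1, and LYST to 0.0067 without control siRNA replicate 2 (ranges over the libraries left out -0.23 to 0.57 and -0.10 to 0.0067). Of all genes, 0 were called without the block, 170 with the replicate block, 2 by DESeq2, 57 by DESeq2 with the replicate block, 52 with no filter on low counts, and 0 to 73 when leaving out 1 library, the most without control siRNA replicate 2. A lone library is then assumed to vary like the other group, and batch is mixed with siRNA. None of the 9 was called in any leave-one-out fit. With all libraries, log2 fold changes moved over 1.5 times with the highest transcript for MLPH (-0.26), HPS4 (-0.14) and AP3B1 (0.18), with limma on log2(RPKM + 1) or log2(RPKM + 0.1) for HPS4 (-0.50 and -0.52) and LYST (-0.48 in each), with reads of all 3 regions for HPS4 (-0.54) and LYST (-0.13), and with the replicate block for AP3B1 (0.14 in edgeR and 0.15 in DESeq2). For batch 2 against batch 1, 1657 genes were called, 538 without the siRNA term, 694 by DESeq2, and 29 to 1280 when leaving out 1 library. Of the 9, 1 was called, 0 without the siRNA term, 2 with at least 50 reads in every library, and 0 in each leave-one-out fit. The cause was not tested. Depth limits HPS4 most, with 75 reads in CDH3-AS1 siRNA replicate 2.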
